A study of Mus musculus with 53 samples.

Results

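The sciatic nerve (SCN) transcriptome of mice on a high-fat diet (HFD) was compared with that of mice on standard diet (SD) at 24 weeks of age. The members are 15 of the 53 samples of the series, chosen by their labels for diet, age, streptozotocin and dietary reversal: 7 HFD samples (HFD24), which had neither streptozotocin nor reversal of the diet, and 8 SD samples (SD24). All mice were C57BL/6J, described as male in the study's methods, and the fat-rich or the control diet was given from a young age on, and HFD alone, without streptozotocin, serves in the study as a model of prediabetes. SCN is a mixed tissue, and the sample holds axons without their cell bodies, Schwann cells, fibroblasts, vessels, immune cells, the fat around the nerve and, at times, bordering muscle. In such bulk RNA, fewer cells of a type and less RNA per cell cannot be told apart. The labels give no statement that each sample is a separate animal, so p-values measure the spread between these samples. The 5 SD and 7 HFD samples of the same design at 16 weeks (SD16 and HFD16) were used to set the differences beside an earlier age.

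A nerve exposed to long dietary fat excess meets several processes that are well described in other tissues. Triglyceride is made from glycerol and acyl chains by the acyltransferases of the endoplasmic reticulum, stored in droplets coated by perilipins, and taken apart again by lipases. Adipocytes that enlarge secrete leptin, and the macrophages that gather around them carry the integrins CD11c and CD11d, take up lipid and release proteases. In the nerve itself, Schwann cells wrap axons in myelin, a membrane whose lipids they synthesize largely on their own.

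The deposited value of a gene is a normalized expression value on a log2 scale, so a difference of 1 is a factor of 2 on the linear scale. In total, 18195 of 49568 genes had a mean of at least 3.32 and were tested, and the genes next to this limit were Adora3 with a mean of 3.32011 just inside and Bloc1s2-ps with 3.31994 just outside. Another 25 genes with a value above 22 in a library were left out. The highest value of a gene that was kept was 20.9625 over all libraries, and the lowest value of a gene left out was 49.8066. Correlations between the 15 samples ran from 0.953 to 0.992 and sample medians from 9.09 to 9.28, and the reads behind each value are unknown. A pair of marker means describes the other tissues in each sample. The mean of 6 adipocyte genes (Adipoq, Plin1, Cidec, Lipe, Retn and Cfd) was 12.2 ± 0.86 (SD, n = 8) in SD24 and 12.3 ± 1.09 (SD, n = 7) in HFD24. These near-equal means hold differences in both directions, since 4 of the 6 genes had a higher and 2 a lower mean in HFD24, Cfd by -1.87, and without Cfd the mean was 11.6 ± 0.844 (SD, n = 8) in SD24 and 12.1 ± 1.11 (SD, n = 7) in HFD24. The mean of 6 skeletal muscle genes was 11.7 ± 3.34 in SD24, with replicate 5 at 17.3, and 9.84 ± 2.82 in HFD24, with replicate 1 at 15.2. All 13 tested muscle genes had a lower mean in HFD24, with a median difference of -1.71, but none had a nominal p (before adjustment) below 0.05. With the muscle marker mean as a covariate that median was 0.14. Genes such as Tnnt3, Tnni2 and Mylpf are in both the list and that mean, so a move toward 0 is built in. The myelin genes stood at high values in both groups, with mean levels over the list from 15.1 to 15.8 in SD24 and from 15.1 to 15.7 in HFD24, as is known for peripheral nerve. For sensory neurons, 8 of the 20 listed genes were among those left out above 22. These 8 were above 22 only in replicate 7 of the HFD group with streptozotocin at 24 weeks, which is not among the 15 samples. In the 15 samples, 2 of the 25 genes left out were above 22, both immunoglobulin genes.

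At 24 weeks, 22 genes differed between HFD and SD nerve past the threshold (limma with Benjamini-Hochberg adjusted p under 0.05), which is 0.121% of the genes tested. Of these, 20 were higher in HFD nerve (0.11%) and 2 were lower (0.011%). In the higher direction, differences ran from 0.87 for Fgf12 to 5.42 for Tph2. Of the 20 higher genes, 17 had every HFD24 sample above every SD24 sample, as did 0.181% of all genes tested, and of the 2 lower genes 1 had every HFD24 sample below, as did 0.0714% of all. The higher genes had low log2 values in SD24, where 19 of the 20 had a mean under 6 and 5 a mean under 3.32. They also spread more among HFD mice, with a larger SD in HFD24 than in SD24 for 17 of the 20. With each of the 15 samples left out in turn, 13 of the 22 genes passed every time, whereas Acsm3, Gsg1l and RP24-216P6.3 passed in 10 of the 15 fits, Vsig8 in 8, Oxtr in 7, Fgf12 and Tm4sf19 in 4, Clec4d in 3 and Plch2 in 2. The 5 higher genes with an SD24 mean under 3.32 (Lipf, Gsg1l, Vsig8, Tm4sf19 and Plch2) entered the test through their HFD24 values alone. The lower gene RP24-216P6.3 entered it through its SD24 values, since its HFD24 values were under 3.32 in all samples but replicate 6. Without the filter on low values, 16 of the 22 passed, and Acsm3, Clec4d, Fgf12, Oxtr, Tm4sf19 and Plch2 had adjusted p-values from 0.0537 to 0.0827 from limma. Without SD24 replicate 5 and HFD24 replicate 1, which had the highest muscle marker means, 14 genes passed, 11 of them among the 22. Lipf, Plppr4 and Sez6l, which had passed with each single sample left out, did not pass without those 2 samples. The median difference over all genes tested was 0.0078, and 9461 of the 18195 had a higher and 8734 a lower mean in HFD nerve. At a nominal p below 0.05, 5.55% of all genes tested were higher and 3.51% lower in HFD nerve, and the counts of each gene list stand beside these shares.

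**Figure D1:**
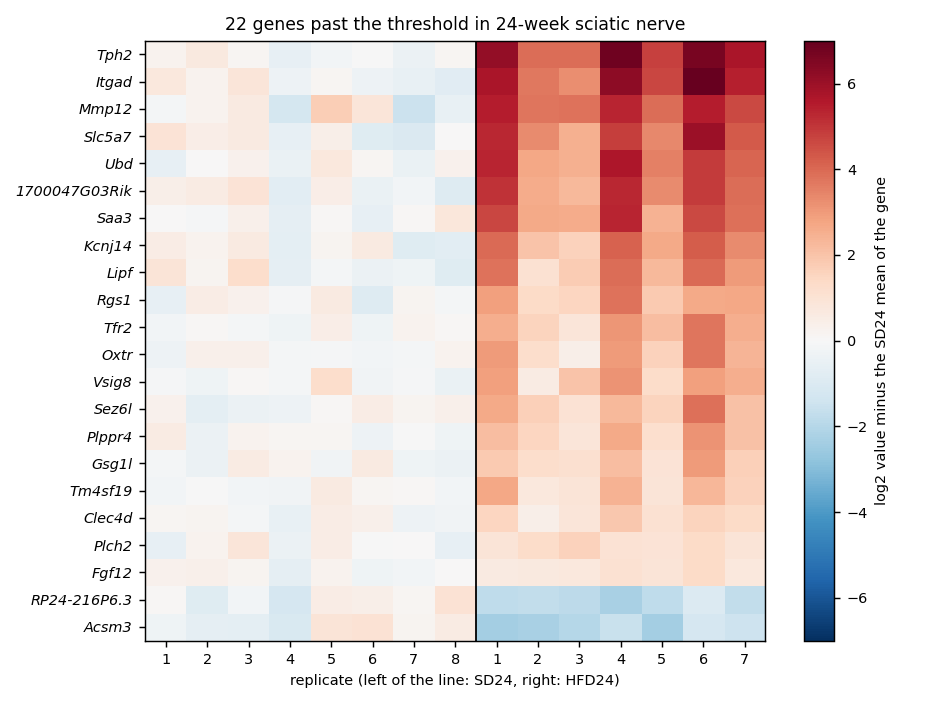
Heat map of the 22 genes past the threshold (rows) in the 8 SD24 and 7 HFD24 samples (columns), coloured by the log2 value minus the SD24 mean of the gene. The 20 higher genes are red in HFD24, mostly palest in replicates 2 and 3, and Acsm3 and RP24-216P6.3 are blue.

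The promoters of several of these genes are given first, since the genes differed together between the diets. Of the 22 genes, 17 matched the RefSeq promoter table by symbol, with 25 promoters in all, each 250 bases before to 50 after an annotated start on GRCm38.p6. Both strands were searched for TATAAA (the TATA box), TGANTCA (AP-1, the site of Fos and Jun dimers), TTGCNNAA (C/EBP, factors of fat cells, myeloid cells and the acute phase) and TTCNNNGAA (STAT), where N is any base. These letters occur in 13.62%, 7.81%, 10.8% and 8.3% of all 32851 promoters of that length. Among the 25 promoters, 3 held the TATA letters, 3 the AP-1 letters, 5 the C/EBP letters and 1 the STAT letters. Counted over the 17 genes, with a match in any promoter, the numbers were the same, but the shares above are per promoter. The promoters below are shown for the 4 genes with the largest differences among those that held a match (Tph2, Mmp12, Slc5a7 and Saa3) and for the lower gene Acsm3, 5′ to 3′ on the strand of the gene, with matched letters in capitals.
Tph2, chr10:115184973-115185272, minus strand: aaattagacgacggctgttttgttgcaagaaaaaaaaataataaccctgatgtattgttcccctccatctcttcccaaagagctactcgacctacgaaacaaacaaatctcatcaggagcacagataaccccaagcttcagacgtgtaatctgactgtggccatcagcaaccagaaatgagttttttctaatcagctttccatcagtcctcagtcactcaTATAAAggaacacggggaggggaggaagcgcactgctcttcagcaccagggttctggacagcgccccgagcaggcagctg
Mmp12, upstream start, chr9:7344147-7344446, plus strand: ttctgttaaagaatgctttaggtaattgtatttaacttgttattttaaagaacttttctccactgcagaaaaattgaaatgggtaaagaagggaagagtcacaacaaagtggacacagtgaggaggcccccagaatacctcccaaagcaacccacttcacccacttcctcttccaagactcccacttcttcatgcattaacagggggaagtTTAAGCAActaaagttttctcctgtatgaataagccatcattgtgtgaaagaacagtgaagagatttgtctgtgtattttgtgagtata
Mmp12, downstream start, chr9:7347124-7347423, plus strand: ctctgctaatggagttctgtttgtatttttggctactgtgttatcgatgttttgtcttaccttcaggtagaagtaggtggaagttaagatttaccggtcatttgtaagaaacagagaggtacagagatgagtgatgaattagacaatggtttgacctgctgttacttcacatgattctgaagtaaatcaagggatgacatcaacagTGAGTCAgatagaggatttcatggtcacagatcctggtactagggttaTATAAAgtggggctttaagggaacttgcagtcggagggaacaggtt
Slc5a7, chr17:54298985-54299284, minus strand: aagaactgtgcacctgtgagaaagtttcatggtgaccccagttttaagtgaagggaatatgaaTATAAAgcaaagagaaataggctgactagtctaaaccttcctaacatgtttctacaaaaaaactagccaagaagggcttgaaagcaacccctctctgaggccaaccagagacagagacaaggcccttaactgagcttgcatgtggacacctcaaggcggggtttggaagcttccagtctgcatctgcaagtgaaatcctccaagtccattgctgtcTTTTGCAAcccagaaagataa
Saa3, chr7:46715627-46715926, minus strand: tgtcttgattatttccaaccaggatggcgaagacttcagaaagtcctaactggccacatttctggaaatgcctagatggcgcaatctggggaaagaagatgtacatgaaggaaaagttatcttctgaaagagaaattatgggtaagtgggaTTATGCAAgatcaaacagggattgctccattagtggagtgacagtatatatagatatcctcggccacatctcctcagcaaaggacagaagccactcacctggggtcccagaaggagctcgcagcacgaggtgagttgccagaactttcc
Acsm3, chr7:119760673-119760972, plus strand: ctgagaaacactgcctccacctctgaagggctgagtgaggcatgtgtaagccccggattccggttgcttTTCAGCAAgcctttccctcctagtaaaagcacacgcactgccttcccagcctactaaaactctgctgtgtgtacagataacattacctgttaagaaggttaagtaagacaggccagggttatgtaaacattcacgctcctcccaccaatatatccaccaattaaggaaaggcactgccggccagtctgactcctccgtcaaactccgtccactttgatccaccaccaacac
The capitals in Tph2 are a TATA box that begins at position -30 from the start. In Mmp12 they are a C/EBP match before the upstream start, and an AP-1 match before and a TATA match just after the downstream start. In Slc5a7 they are a TATA match that begins at position -187 and a C/EBP match after the start. In Saa3 and Acsm3 the capitals are C/EBP matches that begin at positions -99 and -181 from the start. A match of so few letters is a description of the sequence only.

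The largest difference was that of Tph2, the tryptophan hydroxylase best known from serotonin neurons of the brain, which catalyses the rate-limiting step of serotonin synthesis. The gene lies on chromosome 10 of GRCm38 (115078641 to 115185022, minus strand) and has 13 exons in GENCODE M21. Its log2 value was 3.16 at the lowest, 3.80 at the median and 4.45 at the highest in SD24, and 7.67, 9.47 and 10.59 in HFD24. No sample of either group came near the other, and the difference was 5.42 (SE 0.42, adjusted p = 9.98e-06 from limma), or 42.7-fold on the linear scale. The exact two-sided permutation test of this gene gave p = 0.0001554, the smallest it can give. Among the 17 tested genes of serotonin synthesis, breakdown and reception, Tph2 was alone in passing the threshold and alone in having a nominal p below 0.05. The median of the list was -0.10. Tph1, the hydroxylase of mast cells and the gut, was 6.00 at the median in SD24 and 5.61 in HFD24 (difference -0.35, adjusted p = 0.592 from limma).

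Among genes of macrophages, Itgad, which encodes the CD11d integrin subunit, ranged from 2.69 to 4.37 around a median of 3.41 in SD24 and from 6.76 to 10.45 around 8.94 in HFD24. The groups were wide apart, with a difference of 5.14 (SE 0.48, adjusted p = 7.70e-05 from limma). Its exons on chromosome 7 (128154376 to 128223816, plus strand) overlap those of several other genes for short stretches, among them Cox6a2 for 70 bases, and reads of the non-stranded libraries cannot be told apart there. Mmp12, the macrophage metalloelastase on chromosome 9 (7344381 to 7369499, plus strand), ranged from 4.17 to 7.42 in SD24 and from 9.44 to 11.19 in HFD24. The groups were apart, and the highest SD sample was replicate 5, which also had the highest muscle marker mean. The difference was 4.62 (SE 0.45, adjusted p = 0.000106 from limma).

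Of the 18 genes of lipid-associated macrophages, these 2 passed the threshold and 10 had a nominal p below 0.05, all of them higher in HFD nerve, against 5.55% of all genes tested in that direction. The median difference of the list was 0.57. Adam8, a membrane protease of activated myeloid cells, had medians of 6.48 in SD24 and 8.84 in HFD24 (difference 2.16, SE 0.43, adjusted p = 0.0623 from limma). Itgax, which encodes CD11c, had medians of 5.52 and 7.39 (difference 1.79, SE 0.37, adjusted p = 0.0684 from limma). Trem2, the lipid receptor of these cells, differed by 0.55 with an unadjusted p-value of 0.024, while Gpnmb, Spp1, Cd63, Cd9 and Apoe had unadjusted p-values from 0.18 to 0.99. Of the 15 general macrophage genes tested, 1 (6.67%) had a nominal p below 0.05 in each direction, against 5.55% higher and 3.51% lower of all genes, and the median was 0.16. Cd68, a lysosomal protein of phagocytes, was 10.44 at the median in SD24 and 11.15 in HFD24 (adjusted p = 0.536 from limma). Cx3cr1, the fractalkine receptor of resident macrophages, was 8.85 and 8.30 (adjusted p = 0.385), and its ligand gene Cx3cl1 was 9.93 and 9.45 (adjusted p = 0.361). Further called genes that are known from leukocytes are Rgs1, a brake on G-protein signals of chemokine receptors, with a difference of 2.40, and Clec4d, a myeloid lectin receptor, with 1.23. Tm4sf19, a tetraspan membrane protein of osteoclast-like and lipid-laden macrophages, differed by 1.66. This gene entered the test through its HFD24 values, and without the filter on low values its adjusted p was 0.0742 from limma.

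Saa3, an acute phase apolipoprotein made in fat and by macrophages, lies on chromosome 7 (46711998 to 46715700, minus strand) beside its close relatives, with which reads can be shared. Its value was 2.76, 3.42 and 4.20 at the lowest, median and highest of SD24 and 5.82, 7.24 and 8.70 in HFD24. All HFD samples lay above all SD samples, with a difference of 3.73 (SE 0.41, adjusted p = 0.000328 from limma). Of the 15 tested acute phase genes, Saa3 alone passed the threshold, 5 (33.3%, against 5.55% of all genes) were higher and 1 (6.67%, against 3.51%) lower at a nominal p below 0.05, and the median was 0.74. Serpina3n, an inhibitor of serine proteases, was just outside, with medians of 11.90 and 12.57 (difference 0.74, SE 0.14, adjusted p = 0.0583 from limma). Wfdc21, a small secreted antiprotease of innate defence, differed by 2.02 (adjusted p = 0.0623), Il1rn, the antagonist of the interleukin-1 receptor, by 1.99 (adjusted p = 0.0788), and Hp, which binds free haemoglobin, by 2.06 with an unadjusted p-value of 0.00066. In all, 4 of the 15 had a lower mean in HFD nerve. Among them, Orm3, an orosomucoid, was the 1 with a nominal p below 0.05 (difference -0.85, unadjusted p = 0.012 from limma).

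Ubd encodes FAT10, a ubiquitin-like modifier that marks proteins for the proteasome and responds to inflammatory cytokines. The gene has 2 exons on chromosome 17 (37193892 to 37196095, plus strand). Its value ran from 3.95 to 5.26 in SD24 and from 7.04 to 10.19 in HFD24, with a difference of 4.09 (SE 0.43, adjusted p = 0.000228 from limma). Among the 10 genes of the immunoproteasome and peptide transport, Ubd was alone at a nominal p below 0.05 (10%, against 5.55% of all genes). The median was -0.05, and Tap1 (difference -0.18) and Psmb8 (-0.18) had unadjusted p-values of 0.11 and 0.15 from limma. Of the 16 interferon-stimulated genes, 0 had a nominal p below 0.05 and the median was -0.05. Among 9 MHC class II genes the count was also 0, with a median of 0.26. Lymphoid genes were higher on average in HFD nerve in 13 of 13 cases, as were 9461 of all 18195 genes tested, with a median of 0.59. At a nominal p below 0.05, 4 were higher (30.8%, against 5.55% of all genes). The first of these was Ighm, the heavy chain of IgM, at medians of 10.32 and 12.28 (difference 1.58, adjusted p = 0.245 from limma).

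**Figure D2:**
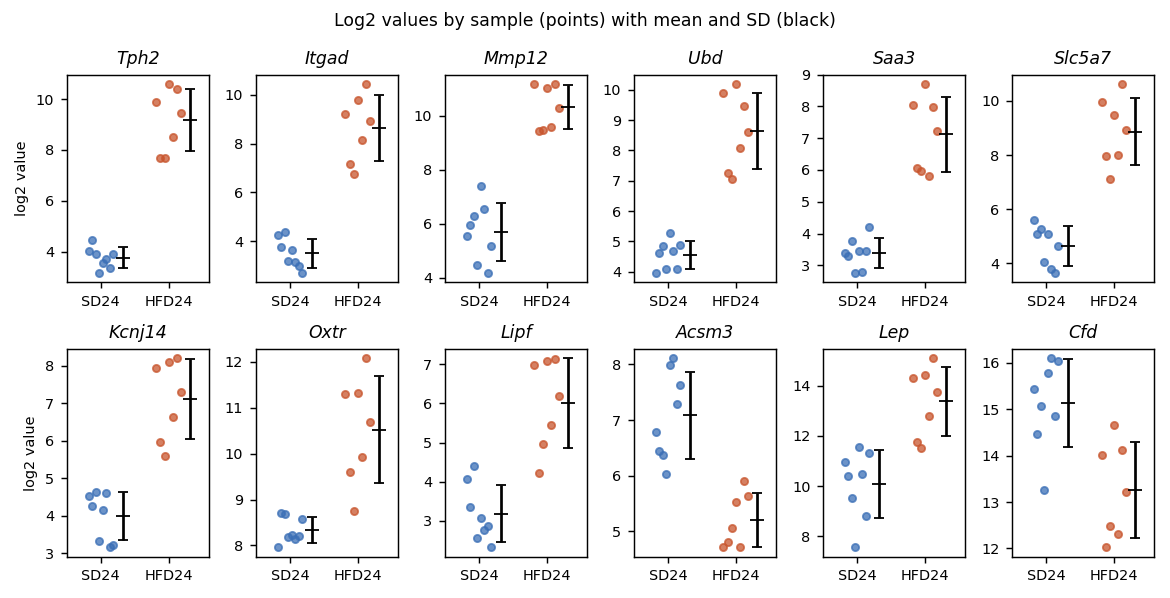
Log2 values of 12 genes in each SD24 (blue) and HFD24 (orange) sample, with the mean and SD in black, each panel on its own axis. For Tph2, Itgad, Mmp12, Ubd, Saa3, Slc5a7, Kcnj14 and Oxtr all HFD24 points lie above all SD24 points, and for Acsm3 all lie below.

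Several of the called genes are known from neurons or excitable cells. Slc5a7 encodes the high-affinity choline transporter of cholinergic nerve endings and lies on chromosome 17 (54273590 to 54299034, minus strand). Its value was 3.65 at the lowest, 4.86 at the median and 5.61 at the highest in SD24, and 7.11, 8.92 and 10.62 in HFD24. The difference was 4.21 (SE 0.47, adjusted p = 0.000328 from limma). Slc5a7 was alone among 12 tested choline genes in having a nominal p below 0.05 (8.33%, against 5.55% of all genes). Chat, which makes acetylcholine, and Slc18a3, which loads it into vesicles, were under the limit for testing. Kcnj14, an inward rectifier potassium channel, ranged from 3.15 to 4.63 in SD24 and from 5.58 to 8.19 in HFD24 (difference 3.12, SE 0.41, adjusted p = 0.00207 from limma). Of 20 potassium channel genes tested, 2 (10%, against 5.55% of all genes) were higher at a nominal p below 0.05. The other was Kcnj15, with medians of 6.91 and 7.95 (adjusted p = 0.453 from limma).

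Oxtr, the oxytocin receptor on chromosome 6 (112473683 to 112489943, minus strand), was at 7.96, 8.23 and 8.70 in SD24 and at 8.75, 10.69 and 12.07 in HFD24. The SD samples were tightly grouped and the HFD samples were widely spread, with a difference of 2.19 (SE 0.38, adjusted p = 0.0269 from limma). Plppr4, a lipid phosphatase-related protein of synapses, differed by 1.93 and Sez6l, a neuronal membrane protein, by 2.15, and these 2 were the genes of the 12 tested in the neuronal list that had a nominal p below 0.05. That share is 16.7%, against 5.55% of all genes tested. The median of these 12, which lack the sensory neuron genes left out above 22, such as Calca and Nefl, was 0.15. Gsg1l, an auxiliary subunit of AMPA receptors, differed by 1.71, and Fgf12, an intracellular fibroblast growth factor homologue that binds sodium channels, by 0.87. Plch2, a neuronal phospholipase C, differed by 1.15. Tfr2, the second transferrin receptor, which senses iron, differed by 2.35, and Vsig8, an immunoglobulin-domain protein, by 2.17. Gsg1l, Plch2 and Vsig8 entered the test through their HFD24 values. Without the filter on low values, their adjusted p-values were 0.0431, 0.0827 and 0.0495 from limma. The long non-coding RNA 1700047G03Rik on chromosome 15 (11964276 to 11970086, plus strand) ranged from 2.83 to 4.69 in SD24 and from 6.02 to 9.03 in HFD24, a difference of 3.89 (SE 0.46, adjusted p = 0.000549 from limma).

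In lipid metabolism, 1 lipase and 1 acyl-CoA synthetase passed the threshold. Lipf, which encodes gastric lipase, was 2.32, 2.97 and 4.41 at the lowest, median and highest of SD24 and 4.23, 6.19 and 7.13 in HFD24. A single HFD sample, replicate 2, lay within the SD range, and the difference was 2.83 (SE 0.45, adjusted p = 0.0134 from limma). Lipf entered the test through its HFD24 values, and without the filter on low values its adjusted p was 0.0357 from limma. It did not pass without SD24 replicate 5 and HFD24 replicate 1. Of 16 lipases and their regulators, 4 (25%, against 5.55% of all genes) were higher and 1 (6.25%, against 3.51%) lower at a nominal p below 0.05, with a median of 0.34. Angptl4, which inhibits lipoprotein lipase and is a target of PPAR receptors, had medians of 12.88 and 13.74 (difference 0.71, adjusted p = 0.266 from limma), and Lipa, the acid lipase of lysosomes, 12.35 and 12.53 (adjusted p = 0.345). Lpl itself differed by 0.89 (adjusted p = 0.604).

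Triglyceride synthesis gave 2 of 15 genes higher at a nominal p below 0.05 (13.3%, against 5.55% of all genes), and the median of the list was 0.08. Mogat2, which acylates monoacylglycerol, had medians of 3.91 and 5.51 (difference 1.46, adjusted p = 0.125 from limma). Dgat2, which adds the last acyl chain, had medians of 12.33 and 13.76 (difference 1.11, adjusted p = 0.453). Among 12 lipid droplet genes, 4 (33.3%, against 5.55%) were higher at a nominal p below 0.05 and the median was 0.19. With the adipocyte marker mean without Cfd as a covariate the median was -0.02. That mean holds Cidec, a gene of this list, so part of the move is built in. G0s2, the inhibitor of adipose triglyceride lipase, differed by 0.74, the droplet coat genes Plin4 and Plin2 by 1.18 and 0.59, and the droplet fusion gene Cidec by 1.09, with adjusted p-values from 0.307 to 0.532. Of 18 genes of fatty acid uptake, 3 (16.7%, against 5.55%) were higher at that level, the short-chain receptor Ffar2 (1.47), the transporter Cd36 (1.02) and the carrier Fabp4 (1.08). The study singled out 8 lipid and inflammation genes (Lipf, Pla2g2e, Lpgat1, Dgat2, Lpl, Cd36, Saa3 and Il1rn) on these very samples, so their direction is not independent evidence: all 8 were higher on average, 7 at a nominal p below 0.05 and 2 past the adjusted threshold.

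Enzymes that make fatty acids leaned in the opposite direction. Of 18 tested, 17 had a lower mean in HFD nerve, as did 8734 of all 18195 genes tested. A nominal p below 0.05 was found for 8 of the 18 (44.4%), against 3.51% of all genes tested in that direction. The median was -0.33, and none passed the adjusted threshold. Fasn, the fatty acid synthase, ranged from 13.75 to 16.02 around a median of 14.67 in SD24 and from 13.41 to 14.14 around 13.82 in HFD24. The SD range was wide and the groups overlapped, with a difference of -0.95 (SE 0.28, adjusted p = 0.259 from limma). Acly, which supplies acetyl-CoA, differed by -0.62 (adjusted p = 0.379), Acacb, an acetyl-CoA carboxylase, by -0.96 (adjusted p = 0.385), and the desaturase Fads2 by -0.33 (adjusted p = 0.35). Acaca, Srebf1, Acss2 and Scd2 had differences from -0.55 to -0.25 with unadjusted p-values from 0.0137 to 0.0335. Of 21 genes of cholesterol synthesis and uptake, 19 had a lower mean in HFD nerve, and the median was -0.15. Of these genes, 3 (14.3%, against 3.51% of all genes) were lower at a nominal p below 0.05.

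Acsm3, a mitochondrial medium-chain acyl-CoA synthetase on chromosome 7 (119760923 to 119787513, plus strand), was 1 of the 2 genes that passed in the lower direction. Its value was 6.03, 7.03 and 8.11 at the lowest, median and highest of SD24 and 4.72, 5.07 and 5.91 in HFD24. The groups came close without overlapping, with a difference of -1.88 (SE 0.32, adjusted p = 0.0224 from limma), or 3.68-fold. Its exons overlap those of Eri2 on the other strand for 1962 bases, and reads there cannot be told apart. RP24-216P6.3, a transcript named by its genomic clone, ranged from 3.70 to 5.86 in SD24 and from 2.60 to 3.89 in HFD24 (difference -1.73, SE 0.29, adjusted p = 0.0183 from limma). This transcript entered the test through its SD24 values, and without the filter on low values its adjusted p was 0.0431 from limma. Of 24 tested genes of fatty acid oxidation and ketones, 2 (8.33%, against 5.55% of all genes) were higher and 2 (8.33%, against 3.51%) lower at a nominal p below 0.05. Cpt1a, the gate of acyl chains into mitochondria, was among the higher ones, at medians of 12.55 and 12.75 (adjusted p = 0.455 from limma).

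Among the genes that followed in the lower direction by p-value, none past the adjusted threshold, were Dusp8 (difference -0.54), Rnf187 (-0.26), Tgtp1 (-0.72), Rnd1 (-1.14), Jun (-0.51), Gcat (-0.41) and Hnrnpm (-0.24), with adjusted p-values from 0.0623 to 0.11 from limma. Jun, the AP-1 subunit that Schwann cells raise after injury, ranged from 11.94 to 12.69 in SD24 and from 11.55 to 12.08 in HFD24. Dusp8, a phosphatase of stress kinases, ranged from 10.83 to 11.24 and from 10.17 to 10.96. Both pairs of ranges overlap at their edges. Of 13 immediate early and heat shock genes, 4 (30.8%, against 3.51% of all genes) were lower at a nominal p below 0.05 (Jun, Hspa1a, Egr2 and Hspa1b) and the median was -0.31.

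Of 16 myelin genes, 14 had a lower mean in HFD nerve, as did 8734 of all 18195 genes tested. Of these 16, 0 had a nominal p below 0.05, and the median was -0.11. Mag, an adhesion protein of the innermost myelin layer, was 13.59 at the median in SD24 and 13.40 in HFD24 (adjusted p = 0.57 from limma). Of 20 Schwann cell genes, 2 (10%, against 5.55% of all genes) were higher and 3 (15%, against 3.51%) lower at a nominal p below 0.05 with a median of -0.03. The higher ones were Runx2 (difference 0.55) and the neurotrophin gene Bdnf (0.83), and the lower ones included Jun and Olig1 (-0.64). At the node of Ranvier, Sptbn4, the spectrin under the nodal membrane, was the 1 gene of 14 (7.14%, against 5.55% of all genes) with a nominal p below 0.05 (difference 0.71). Endothelial genes gave 0 of 16, mast cell genes 0 of 12, glycolysis genes 0 of 22 and insulin and IGF signalling genes 0 of 22 at that level. Nuclear genes of oxidative phosphorylation had a lower mean in HFD nerve in 21 of 22 cases with a median of -0.23, and 1 (4.55%, against 3.51% of all genes) had a nominal p below 0.05. The muscle marker mean was also lower in HFD24, and with it as a covariate the median was -0.10 and the count 0. In the same fit the median of the glycolysis genes went from -0.16 to 0.0021 and that of fatty acid oxidation from -0.07 to 0.05. The part of muscle RNA in these medians was not tested. Of 19 clock genes, Arntl (-0.49) and Nfil3 (-0.59) were lower at a nominal p below 0.05 (10.5%, against 3.51% of all genes). Of 16 cell cycle genes, 6 (37.5%, against 5.55% of all genes) were higher at that level, led by the mitotic kinases Plk1 (0.98) and Cdk1 (0.76), with a median of 0.46 and adjusted p-values of 0.283 and more.

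**Figure D3:**
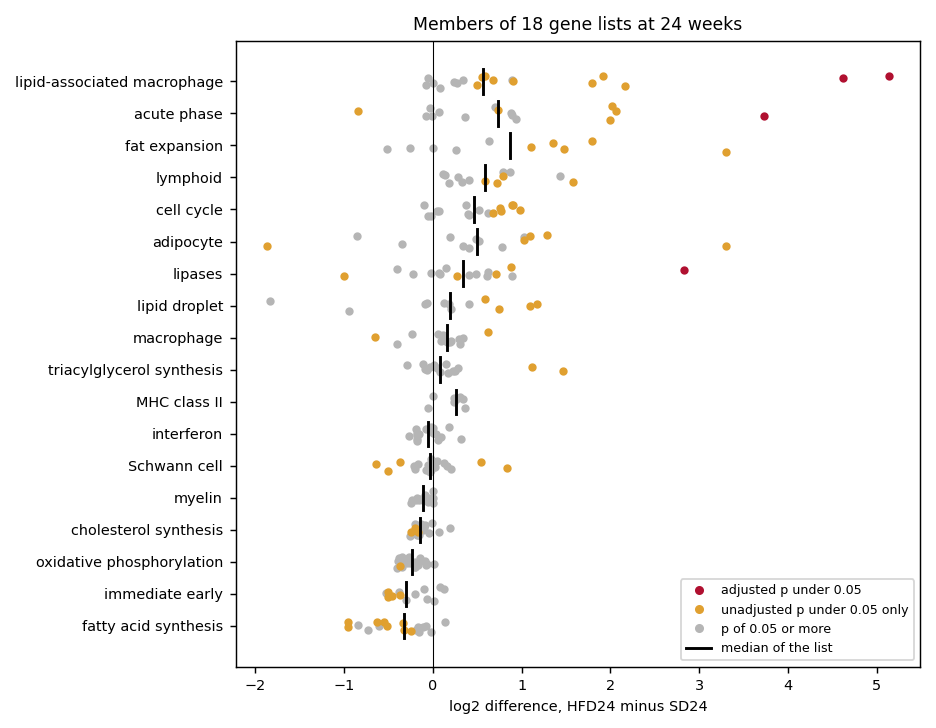
Difference in mean log2 value between HFD24 and SD24 for each tested member of 18 gene lists (points) with the list median (black bar), coloured by p-value from limma. Among lipid-associated macrophage genes Itgad (5.14) and Mmp12 (4.62) lie far to the right, and 17 of 18 fatty acid synthesis genes lie left of 0.

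Genes of fat cells differed in both directions. Of 14 adipocyte genes, 4 (28.6%, against 5.55% of all genes) were higher and 1 (7.14%, against 3.51%) lower at a nominal p below 0.05, and the median was 0.50. Lep, which encodes leptin and lies on chromosome 6 (29060220 to 29073877, plus strand), was 7.56, 10.43 and 11.56 at the lowest, median and highest of SD24 and 11.52, 13.75 and 15.09 in HFD24. The groups overlapped at their edges, and the difference of 3.30 (SE 0.64, adjusted p = 0.0596 from limma) was just outside the threshold. Cfd, which encodes adipsin, a complement protease of fat cells, went the other way, at 13.27, 15.26 and 16.10 in SD24 and 12.02, 13.21 and 14.66 in HFD24 (difference -1.87, SE 0.46, adjusted p = 0.139). Genes tied to the expansion of fat depots had a median of 0.87, with 5 of 10 (50%, against 5.55% of all genes) higher at a nominal p below 0.05. Mest, an early marker of fat expansion, led them after Lep, with medians of 9.18 and 10.95 (difference 1.79, adjusted p = 0.0684). Adipoq, Plin1, Lipe and Retn had unadjusted p-values from 0.12 to 0.47.

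The adipocyte marker mean differed from sample to sample within each diet, and most of the called genes were correlated with it in HFD nerve. The adipocyte marker mean was 13.5, 13.4 and 13.2 in HFD24 replicates 4, 6 and 1, 12.4 in replicate 7, 11.6 in replicate 5 and 11.1 and 11.0 in replicates 3 and 2. Replicates 4, 6 and 1 were among the 3 highest HFD samples for 19, 19 and 18 of the 20 higher genes, and replicates 3 and 2 among the 2 lowest for 17 and 15. Tph2 was 10.59 in replicate 4, 10.41 in replicate 6, 9.90 in replicate 1, 9.47 in replicate 7, 8.52 in replicate 5 and 7.67 in replicates 2 and 3. Its Pearson correlation with the marker mean over the 7 HFD24 samples was 0.989 (exact permutation p = 0.000397, adjusted over 44 correlations p = 0.00582) and Spearman's rho was 0.964 (exact permutation p = 0.00278). In the 8 SD24 samples, where the marker mean ran from 10.6 to 13.2, Pearson's r for Tph2 was 0.393 (exact permutation p = 0.334). Tph2 itself ran only from 3.16 to 4.45 there.

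Of the 20 higher genes, 18 passed for Pearson's r after adjustment over the 44 correlations in HFD24 and 13 for Spearman's rho, with a median r of 0.947. In SD24 the count was 0 for both, with a median r of 0.241. Values of these genes were low there, with a mean under 6 for 19 of the 20 and a smaller SD than in HFD24 for 17. Without the 2 samples farthest from the median of the marker mean, r ran from 0.373 to 0.998 in HFD24, where replicates 2 and 3 were left out, and from -0.668 to 0.862 in SD24. In HFD24, 11.6% of all 18195 genes tested had a positive r with an unadjusted exact permutation p under 0.05, and in SD24 3.3% did. With Cfd left out of the marker mean, the median r was 0.945 in HFD24 and 0.237 in SD24. Whether the correlations differ between the diets was not tested. Fgf12 (r = 0.543) and Plch2 (r = -0.488) were the higher genes that did not pass in HFD24. For the lower genes the larger r was in SD24, the group where their values were higher. Acsm3 had r = 0.849 in SD24 (exact permutation p = 0.00642, adjusted p = 0.0188) and r = 0.551 in HFD24 (exact permutation p = 0.174), and RP24-216P6.3 had r = 0.878 in SD24 (exact permutation p = 0.00317, adjusted p = 0.014) and r = 0.139 in HFD24 (exact permutation p = 0.842).

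**Figure D4:**
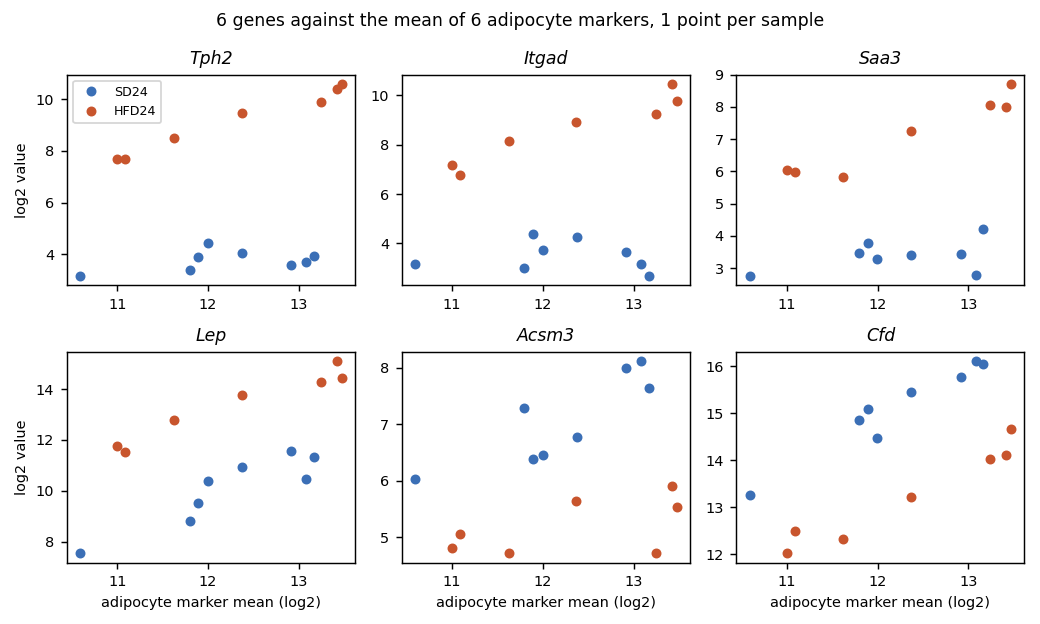
Log2 values of 6 genes (vertical axes) against the mean log2 value of 6 adipocyte markers (horizontal axes), 1 point per sample, SD24 blue and HFD24 orange. Tph2, Itgad and Saa3 rise with the marker mean among HFD24 points (r from 0.957 to 0.989). Among SD24 points, where these genes have low values, r runs from -0.122 to 0.416. Cfd is itself 1 of the 6 markers.

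With the adipocyte marker mean as a covariate in limma's fit, 181 genes passed the adjusted threshold, 0.995% of those tested, with 153 higher (0.841%) and 28 lower (0.154%) in HFD nerve, and all 22 genes were among them. The fit gives each gene a common slope on the marker mean for both diets, while the median r of the higher genes was 0.947 in HFD24 and 0.241 in SD24. Whether a common slope holds was not tested. In this fit, Tph2 was higher by 5.35 (adjusted p = 2.70e-08). Lep was higher by 3.18 (adjusted p = 1.04e-06), the haptoglobin gene Hp by 1.97 (adjusted p = 8.06e-07) and Mest by 1.74 (adjusted p = 0.0013). All 8 lipid and inflammation genes that the study singled out passed, among them Dgat2, higher by 1.03 (adjusted p = 0.000108), Cd36 by 0.94 (adjusted p = 0.00136) and Lpl by 0.80 (adjusted p = 0.0252). Of the lipid-associated macrophage genes, 7 of 18 were higher, Itgax by 1.73 (adjusted p = 0.00136) and Lgals3, a galectin, by 0.64 (adjusted p = 0.0158) included. Of the acute phase genes, 7 of 15 were higher, with Serpina3n at 0.72 (adjusted p = 0.0013). Of 14 adipocyte genes, 6 were higher and Cfd differed by -1.96 (adjusted p = 3.25e-07). Cfd, Cidec (1.00, adjusted p = 0.000187) and Adipoq (0.68, adjusted p = 0.000711) are themselves in the marker mean, so their values in this fit are relative to the other markers. Among lower genes were the carboxylesterase gene Ces1f (-1.08), the lipogenic regulator Thrsp (-0.92), the gluconeogenic enzyme Pck1 (-0.65) and Jun (-0.51), with adjusted p-values from 0.000309 to 0.0349. Since Cfd differed between the diets, the fit was repeated, after the values had been seen, with the mean of the other 5 markers. Then 146 genes passed (0.802%), 104 higher (0.572%) and 42 lower (0.231%), 118 of them shared with the first fit and the 22 genes again included. Lep (2.66, adjusted p = 9.15e-06), Hp (1.56, adjusted p = 2.84e-05), Dgat2 (0.66, adjusted p = 0.00507), Mest and Itgax still passed. Lpl (0.38, adjusted p = 0.347), Cd36 (0.58, adjusted p = 0.0598), Lgals3 (0.51, adjusted p = 0.0805) and Adipoq (0.28, adjusted p = 0.22) did not, so their calls in the first fit rest on Cfd being in the marker mean. The counts became 6 of 8 for the genes the study singled out, 4 of 18 for lipid-associated macrophage genes, 5 of 15 for acute phase genes, and 3 higher and 2 lower of 14 for adipocyte genes.

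At 16 weeks, all 22 genes had a mean difference of the same sign as at 24 weeks. Of the 21 tested at that age, 16 had a nominal p below 0.05, while 4.98% of 17966 genes were higher and 3.57% lower at that level, and none of them passed the adjusted threshold, which 1 gene did (0.00557%). The HFD16 and SD16 samples are other samples than those at 24 weeks. Slc5a7 differed by 4.13 at 16 weeks and 4.21 at 24 weeks, Ubd by 3.27 and 4.09, and Saa3 by 3.02 and 3.73. Tph2 differed by 3.39 at 16 weeks, where HFD16 samples ran from 2.95 to 9.96, so that the lowest lay below the SD16 range of 3.33 to 4.17. Mmp12 differed by 2.65 at 16 weeks, Gsg1l by 0.40, Plch2 by 0.10 and RP24-216P6.3 by -0.42, and these 4 genes had a nominal p below 0.05 for the change of the difference with age. The 22 genes were chosen by their 24-week difference, which is part of that change, so these 4 p-values cannot show a change with age. No gene of 18091 passed the adjusted threshold for that change, with 302 at a nominal p below 0.05 in limma's interaction test and no adjusted p lower than 0.999947. The adipocyte marker mean was 10.6 ± 1.75 (SD, n = 5) in SD16 and 12.2 ± 0.757 (SD, n = 7) in HFD16. Its part in the 16-week differences was not tested.

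**Figure D5:**
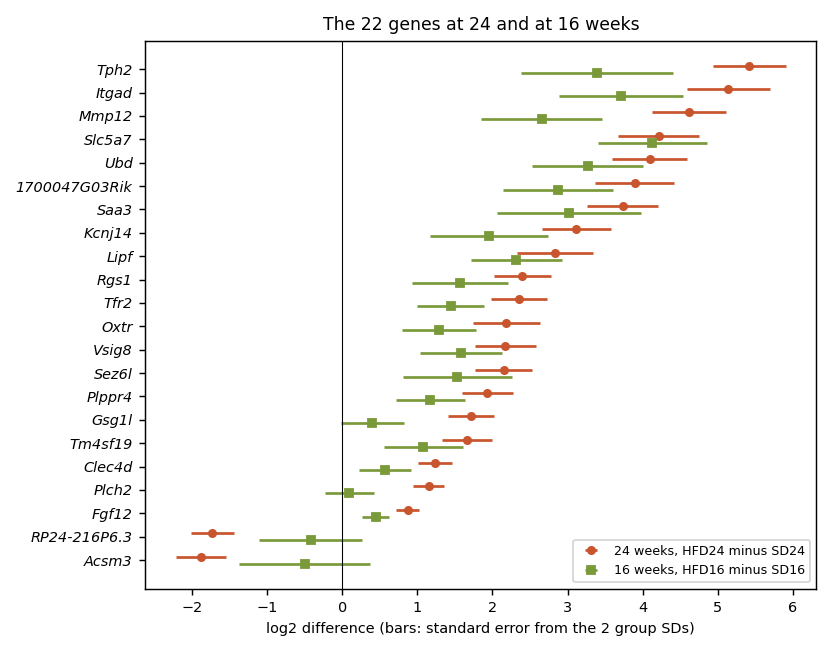
Difference in mean log2 value between HFD and SD nerve for the 22 genes at 24 weeks (orange circles) and at 16 weeks (green squares), with bars of the standard error from both group SDs. All 22 point the same way at both ages, and Slc5a7 is nearly equal (4.21 and 4.13), whereas Plch2 is near 0 at 16 weeks (0.10).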

How the data were processed

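RNA-seq of SCN from 15 mouse samples at 24 weeks was analysed, with 12 samples at 16 weeks. Per the labels, the authors aligned reads with HISAT2 to mm10, counted them with featureCounts and used DESeq2, with versions not given in the sources used here. The deposited files hold 1 log2 value per gene and sample; the normalization behind them is not named, and per-gene reads are unknown, so no count test was run. Genes with any value above 22 in the series and genes with a mean under 3.32 in the 15 samples were left out. HFD24 and SD24 were compared with limma 3.58.1 (R 4.3.3, trended variance prior) and Benjamini-Hochberg adjustment at 0.05, the difference between ages with an interaction term, and single genes with two-sided exact permutation tests. The deposited columns not used numbered 0. Tests were checked on simulated data. Named genes were all genes past the threshold, the 10 lower genes with the smallest p-values, the 4 members of each gene list with the smallest p-values and 8 genes named by the study, except some that are not reported here; Hp, Orm3, Acaca, Srebf1, Acss2, Scd2, Lgals3, Trem2, Cd9, Cd63, Gpnmb, Spp1, Apoe, Plin1, Retn, Ces1f, Thrsp and Pck1 fall outside that rule and were picked with their values in view. The members and gene lists were chosen with earlier results of these data known. Alternatives covered filters, scaling, variance priors, marker means as covariates and leaving out samples. Promoters came from RefSeq (GRCm38.p6) and gene positions from GENCODE M21.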

Additional observations from a re-analysis of the deposited data

Results flagged for a closer look

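In 160 groups of values of the named genes, the highest or lowest sample was set against Dixon's 95% critical value, and 5 groups had a sample far from the others; chance flags about 1 in 20 groups. In SD24 replicate 5, the sample with the highest muscle marker mean, the values of Acacb (12.0554), Vsig8 (3.70496) and Tm4sf19 (3.31941) stood above those of the other SD24 samples. The part of muscle RNA in these values was not tested. In SD24 replicate 4, which had the lowest adipocyte marker mean of the group, Fabp4 (11.7828) stood below the others. In HFD24 replicate 6, RP24-216P6.3 (3.88815) stood above the other HFD24 samples. Among the genes left out for a value above 22, the immunoglobulin gene Ighg2b and a kappa variable gene had log2 values of 55.7065 and 51.7844 in HFD24 replicate 1.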

How the results depend on the processing

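The count of 22 genes (20 higher and 2 lower) was 7 (6 and 1) with the minimum set in every sample, 62 (52 and 10) with all 8 groups in 1 fit, 98 (80 and 18) with the library-number run added to that fit, 42 (40 higher) with each sample centred on its median, 181 (153 and 28) with the adipocyte marker mean as covariate, 146 (104 and 42) with that mean without Cfd (chosen after seeing the data), 34 (32 higher) with the muscle marker mean, and 174 (145 and 29) with both marker means. Without a filter 1 gene was lower. Leaving out 1 sample at a time gave 13 to 44 genes, 13 to 41 higher and 0 to 5 lower, with 13 without SD24 replicate 7, HFD24 replicate 1 or HFD24 replicate 4, 14 without SD24 replicate 8 or HFD24 replicate 7, and 44 without HFD24 replicate 2 or 3. Without SD24 replicate 5 and HFD24 replicate 1, the samples with the highest muscle marker means of their groups, 14 genes passed, 14 higher and 0 lower, an alternative chosen after seeing the data. Of the 22 genes, 7 passed with the minimum in every sample, 11 without those 2 samples and 13 to 22 with 1 sample left out. Tph2, Itgad, Mmp12, Ubd, Saa3, Slc5a7, 1700047G03Rik, Kcnj14, Tfr2, Rgs1, Plppr4, Sez6l and Lipf passed in all 15 of the latter, Plch2 in 2, Clec4d in 3 and Fgf12 and Tm4sf19 in 4. Of the gene list members, 11 passed, 10 to 20 with 1 sample left out, 6 with the minimum in every sample, 23 with all 8 groups, 25 with the run added, 17 centred, 51 with the adipocyte marker mean, 37 with that mean without Cfd, 51 with both means and 7 without the 2 samples. The interaction gave 1 gene with no filter and 0 otherwise, 0 to 0 with 1 sample left out. No label ties the library-number runs to a litter, batch or day, and the correlation of deviations was over 0.1 in 6 of 7 pairs but not in all (range -0.189 to 0.25), so the runs were not taken to pair the samples; with the replicate block of these runs 13 genes passed, 12 higher and 1 lower, 11 of them among the 22. With that block, Lipf, Plppr4 and Sez6l, which passed with each single sample left out, had adjusted p-values from 0.0525 to 0.0796 from limma. The cause of these changes was not tested. The medians of 14 of 43 gene lists changed sign under 1 or more alternatives other than leaving out 1 sample, among them fatty acid oxidation (-0.07 to 0.05), skeletal muscle (-1.71 to 0.14) and glycolysis (-0.16 to 0.0021) with the muscle marker mean, macrophage (0.16 to -0.02) with both means, Schwann cell (-0.03 to 0.0057) and clock (-0.01 to 0.03) with quantile normalization, and lipid droplet (0.19 to -0.02), chemokines (0.11 to -0.03) and matrix enzymes (0.10 to -0.04) with the adipocyte mean without Cfd. The skeletal muscle and lipid droplet lists share genes with those marker means, so part of their change is built in. No named gene past the threshold reversed. The reads behind each value are unknown, so no counting interval can be given.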
